A study of Mus musculus with 15 samples.

Results

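In cells sorted from mouse testes, 28 of 27128 measured genes met a rule for a peak at 7 days post partum (dpp) in both genotypes of the study. They were chosen by the group means of the deposited signal. A gene had to average at least 10 at 7 dpp in both genotypes, and its 7 dpp mean had to be at least 1.5 times the 3 dpp mean and at least 1.5 times the adult mean within each genotype. Of all genes, 9160 reached the level of 10 at 7 dpp in both genotypes. The 7 names Pou5f1, Dppa3, Neurog3, Rarg, Upp1, Kit and Stra8, and names starting with Hist, were left out by the same rule. Only Pou5f1 among them met the thresholds, so 29 genes met them in all. Because the age means chose these genes, their age pattern is given as a description, with no test.

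The cells were sorted for green fluorescence from testes of mice that carry the Pou5f1-Gfp transgene, in which the promoter of Pou5f1 (the gene for the pluripotency factor OCT4) drives GFP. All groups shared this transgene. The KO mice were Pou5f1-Gfp;Akt1s1 null and the WT mice Pou5f1-Gfp;WT. Akt1s1 encodes PRAS40, a protein that restrains the growth kinase complex mTORC1. There were 2 KO libraries (16 and 18) and 3 WT libraries (13, 14 and 15) at 3 dpp, 3 KO libraries (4, 5 and 6) and 2 WT libraries (2 and 3) at 7 dpp, and 3 KO libraries (10, 11 and 12) and 2 WT libraries (7 and 9) from adults aged 2 to 3 months. Each library held the RNA of a small batch of sorted cells. The labels name neither the deleted part of Akt1s1 nor the animals behind a library, so the p-values reflect library-to-library spread, of which technical variation may be a part.

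In the first week after birth, mouse germ cells resume division and become spermatogonia, and some of them start to differentiate in response to retinoic acid. Over the same days the Sertoli cells that surround them still divide and lay down the first parts of the barrier that later closes the tubule. Meiotic cells and spermatids appear only after this time, so an adult testis holds many cell types that a 7 dpp testis does not.

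The signal is a per-length expression value, close to TPM (a length-corrected share of the transcripts) times 1 factor per library, so levels can be compared between genes. Column totals ran from 896543 to 1183294, and 14515 to 16312 genes had a signal of at least 1. The number of reads behind a value is unknown. Akt1s1 itself ran from 33.4 to 47.4 in the KO libraries and from 49.4 to 72.9 in the WT libraries. The germ cell genes Ddx4 and Dazl had group means of 357 to 549 and 1012 to 1417, so germ cell markers were high in every group, as the label implies. Sertoli cell markers were also present: Amh, a Sertoli hormone, averaged 166 ± 156 in KO (SD, n = 2) and 206 ± 61.1 in WT (n = 3) at 3 dpp, and 120 ± 32.7 in KO (n = 3) and 96.3 ± 6.75 in WT (n = 2) at 7 dpp. In adults Amh was at or under 0.98 in both genotype means. Spermatid markers summed to 2492 to 12170 in the adult libraries, against 37.6 to 56.2 at 3 and 7 dpp. A ratio of 7 dpp over adult therefore does not compare spermatogonia alone.

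Promoters of 21 of the 28 genes could be read from RefSeq (build GRCm38.p6, the patch release of mm10), as the 250 bases before the first listed start of each gene. That start can lie inside the annotated span of the gene. The windows of Gm44, 4933425B16Rik, Six4 and 4933402E13Rik lie within their genes. Those of LOC435145, Olfml2b, Fndc5, Tnni3 and Mfsd2 overlap the edge of their genes. The 4 printed here, each 5′ to 3′ on the strand of its gene, are those of the 2 members with the largest peak and of 2 X-linked members. Capitals mark the letters of 7 short motifs searched on both strands. They belong to Cldn11 at chr3:31149670-31149919 (plus strand), LOC435145 at chr15:82212816-82213065 (minus strand), Nsbp1 at chrX:109013381-109013630 (minus strand) and Tspyl2 at chrX:152342485-152342734 (minus strand).
Cldn11: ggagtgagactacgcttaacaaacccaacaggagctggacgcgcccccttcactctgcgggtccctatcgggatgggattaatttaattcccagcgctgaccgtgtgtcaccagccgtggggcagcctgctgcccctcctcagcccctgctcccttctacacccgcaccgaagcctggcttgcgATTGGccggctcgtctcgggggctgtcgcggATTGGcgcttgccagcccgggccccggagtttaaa
LOC435145 (RefSeq Shisa8): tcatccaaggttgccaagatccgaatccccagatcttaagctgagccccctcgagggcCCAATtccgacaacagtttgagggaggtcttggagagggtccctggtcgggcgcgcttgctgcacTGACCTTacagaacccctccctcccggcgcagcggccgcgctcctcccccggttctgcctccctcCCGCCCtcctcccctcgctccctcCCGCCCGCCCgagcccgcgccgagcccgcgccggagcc
Nsbp1 (RefSeq Hmgn5): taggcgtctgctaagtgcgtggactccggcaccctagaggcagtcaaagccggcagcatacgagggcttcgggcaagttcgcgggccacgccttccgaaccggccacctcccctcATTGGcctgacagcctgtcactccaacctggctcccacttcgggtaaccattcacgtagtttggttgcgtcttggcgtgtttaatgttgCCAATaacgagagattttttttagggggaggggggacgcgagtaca
Tspyl2: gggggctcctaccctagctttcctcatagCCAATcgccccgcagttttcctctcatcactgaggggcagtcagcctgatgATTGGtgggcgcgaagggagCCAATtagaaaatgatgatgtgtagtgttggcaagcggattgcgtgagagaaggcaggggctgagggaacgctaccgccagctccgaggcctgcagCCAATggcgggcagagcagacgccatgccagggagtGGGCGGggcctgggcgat
None of the 7 motifs contains another. The GC box, GGGCGG, stood in 11 of 21 member promoters (52.4%) and in 32.9% of 27025 promoters of the same length. The CCAAT box, named by its letters, stood in 9 of 21 (42.9%, against 34.5% of all). The SOX core, AACAAT, was found in 2 members (9.5%, against 9.6%). An NR5A1 site, AAGGTCA, was found in 1 member (4.8%, against 4.1%). A GATA site, AGATAA, was found in 1 as well (4.8%, against 10.3%). A TATA box, searched as TATAAA, was found in 2 members (9.5%, against 13.0%). An E box, searched as CACGTG, was found in 0 members (0%, against 6.0%). Cldn11 and Nsbp1 thus show CCAAT letters only, Tspyl2 shows a GC box and CCAAT, and LOC435145 is the 1 member with the NR5A1 letters. The member promoters held a median of 15 CpG, against 6 in all promoters. The 27025 promoters were not limited to genes at or above 10 at 7 dpp, as the members were by the rule. Neither the motif shares nor CpG were set against such genes alone. Among members, the 15 autosomal promoters had a median of 18 CpG and the 6 X-linked promoters one of 7.5. These are matches of letters, not sites shown to be bound.

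Of the 28 genes, 27 could be placed on a chromosome, and 9 of these (33.3%) lie on the X chromosome. Among the genes at or above 10 at 7 dpp in both genotypes, 344 of 8828 placed genes (3.9%) are X-linked. The X-linked members were Etd, Nsbp1, 4933402E13Rik, EG436212, Gm41, Gm44, Tro, Tspyl2 and Gprasp2. A further 4 members, Aard, Basp1, Enpp2 and LOC435145, lie on chromosome 15 (14.8%, against 4.0%). EG436212 (chrX:86327943-86328935) and Gm41 (chrX:86345475-86354994) are close neighbours and both are annotated as pseudogenes, so their reads may be shared with near-identical copies. LOC100038945 could not be matched to an annotation. The split into X-linked and autosomal members was made after the values had been seen and is used only to describe them. Members had a median transcript length of 1348 bases, against 1243 in the genes at or above 10, and a median GC content of 48.6% against 50.6%.

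**Figure D1:**
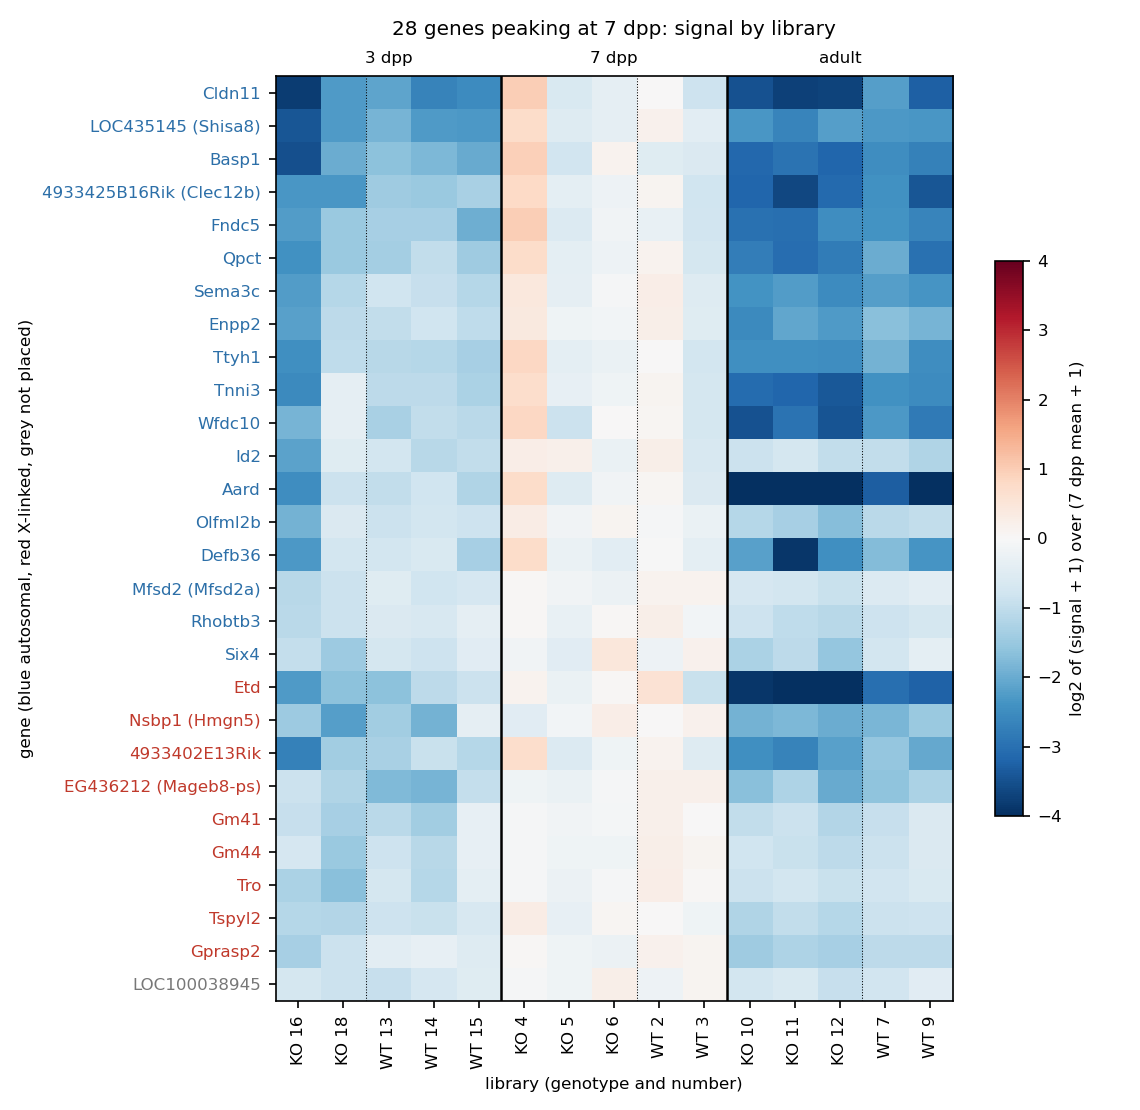
Signal of the 28 genes (rows) in the 15 libraries (columns), as the log2 of signal + 1 over the 7 dpp mean + 1; values under -4 are drawn as -4. Blue names are autosomal, red names X-linked. The 5 libraries at 7 dpp are the palest or reddest in nearly every row, and KO library 4 is reddest of them in 17 of 28 rows. The adult columns are among the darkest for the autosomal Aard and, in KO, for the X-linked Etd.

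The size of the peak differed widely among the members. The 7 dpp mean was 1.76 to 9.26 times the 3 dpp mean in KO (median 2.70) and 1.53 to 4.58 times in WT (median 1.90). Against adults it was 1.65 to 58.0 times in KO (median 6.70) and 1.5 to 11.7 times in WT (median 3.72). The KO ratio was above the WT ratio in 26 of 28 genes for 7 dpp over 3 dpp and in 24 for 7 dpp over adult. In 22 members every 7 dpp library stood above every 3 dpp library, a pattern that 8.32% of all tested genes showed. In 27 members every 7 dpp library stood above every adult library (17.0% of tested genes), and in 22 both held (1.04%). The rule used these values, so nothing is read from those shares. Adult means were below 3 dpp means in both genotypes in 18 members and above them in both in 5. The remaining 5 differed between the genotypes.

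Some members are genes that Sertoli cells are known for. Cldn11 encodes claudin 11, a tight junction protein of the Sertoli cell barrier, and had the largest peak. At 3 dpp its signal was 2.99 and 10.4 in KO libraries 16 and 18, against 11.8, 7.64 and 8.75 in WT libraries 13, 14 and 15. At 7 dpp it was 109, 35.1 and 42.2 in KO libraries 4, 5 and 6, against 55.5 and 30.5 in WT libraries 2 and 3. In adults it was 3.94, 3.17 and 3.27 in KO libraries 10, 11 and 12, against 11.1 and 4.81 in WT libraries 7 and 9. Every 7 dpp library was at least 2.59 times the highest 3 dpp library, while KO library 4 stood far above the other 4 libraries of its age.

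Aard, a short alanine and arginine rich protein, had the highest level of all members. Its signal was 55.3 and 172 in KO and 158, 181 and 137 in WT at 3 dpp. In the 7 dpp libraries it was 522, 220 and 281 in KO libraries 4, 5 and 6, against 329 and 210 in WT libraries 2 and 3. Adult libraries held 15.7, 10.9 and 15.9 in KO and 30.9 and 18.9 in WT. The lowest 7 dpp library was thus 1.16 times the highest 3 dpp library, but 6.80 times the highest adult library. Defb36, a beta-defensin, had the same order of ages, with means of 24.5 ± 17.6 in KO and 34.2 ± 8.74 in WT at 3 dpp, 67.7 ± 32.0 in KO and 54.5 ± 10.6 in WT at 7 dpp, and 9.00 ± 5.13 in KO and 14.8 ± 4.88 in WT adults (SD).

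These 3 genes are on a list of 19 Sertoli cell markers, of which 18 were measured. The summed signal of the 15 others was 420 to 1662 in KO and 998 to 1474 in WT at 3 dpp, 1252 to 1864 in KO and 925 to 1330 in WT at 7 dpp, and 84.3 to 186 in KO and 214 to 438 in WT adults. The adult sums were below every sum of the younger ages, save that KO library 16 at 3 dpp, with 420, was below adult WT library 7, with 438. Of the 13 others that averaged at least 10 at 7 dpp in both genotypes, 12 were at least 1.5 times their adult mean in both genotypes and 0 were at least 1.5 times their 3 dpp mean in both. By their choice, Cldn11, Aard and Defb36 passed both of these ratios. For the 12 markers above their adult mean the 0 was fixed too, since passing the 3 dpp ratio would have made them members. Nothing is read from it. In a sorted bulk sample, fewer cells of a type and less RNA per cell cannot be told apart.

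**Figure D2:**
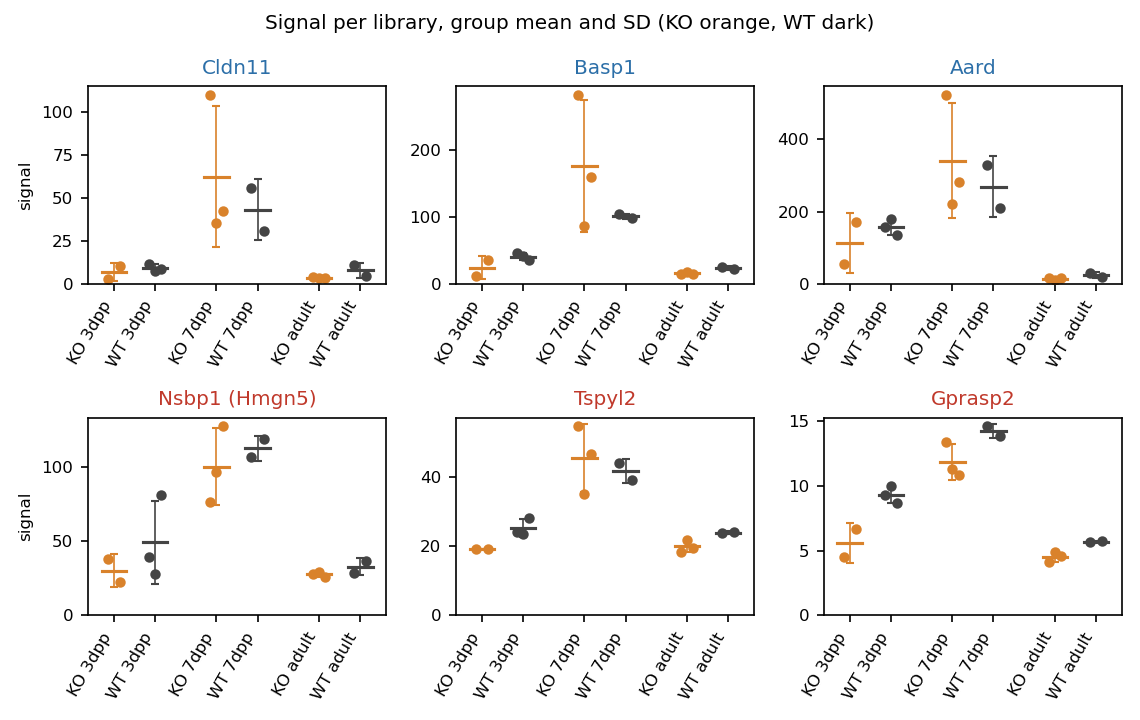
Signal of 6 members in each library (points), with the group mean (bar) and SD (whisker), KO in orange left of WT in dark at each age; the upper row is autosomal and the lower row X-linked. Cldn11, Basp1 and Aard have 1 high point among the KO libraries at 7 dpp, which is KO library 4, and the X-linked genes do not show it to that degree.

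Several members encode membrane and cytoskeletal proteins known from nerve or muscle. Basp1, a membrane-bound protein of growing axons that also acts as a partner of the factor WT1, had 12.0 and 36.3 in KO and 45.8, 41.6 and 35.3 in WT at 3 dpp. The 7 dpp signal was 282, 86.0 and 160 in KO libraries 4, 5 and 6, against 104 and 98.3 in WT libraries 2 and 3. Adult libraries had 15.5, 17.8 and 15.3 in KO and 25.3 and 21.7 in WT. The WT libraries were close together at each age, whereas the KO libraries of 7 dpp spread over more than the whole WT range. LOC435145, which RefSeq names Shisa8 after a family of glutamate receptor partners, averaged 4.09 ± 2.75 in KO and 6.76 ± 1.41 in WT at 3 dpp. It averaged 34.2 ± 18.0 in KO and 30.6 ± 9.26 in WT at 7 dpp, and in adults 5.48 ± 0.97 in KO and 5.81 ± 0.16 in WT. Its peak was the second largest, and its adult libraries lay within the range of its 3 dpp libraries.

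Tnni3 encodes the heart form of troponin I. At 3 dpp its signal was 13.7 and 66.9 in KO and 40.8, 40.4 and 35.3 in WT. It was 139, 68.5 and 75.5 in KO and 92.5 and 52.3 in WT at 7 dpp, and 9.34, 8.52 and 7.20 in KO and 15.1 and 14.1 in WT in adults. KO library 18 at 3 dpp was therefore above WT library 3 at 7 dpp, and the ages overlapped. Ttyh1, a tweety family membrane protein, averaged 10.9 ± 7.68 in KO and 14.4 ± 1.17 in WT at 3 dpp. Its 7 dpp mean was 38.5 ± 20.1 in KO and 27.4 ± 10.1 in WT, with KO library 4 at 61.6 and the other 4 libraries at 20.3 to 34.6. In adults it averaged 5.39 ± 0.09 in KO and 6.82 ± 2.25 in WT. Ttyh1 and Tnni3 both lie on chromosome 7, at chr7:4119530-4135407 and chr7:4518305-4522718. Clec12b, a C-type lectin receptor listed as 4933425B16Rik, averaged 15.9 ± 7.97 in KO and 11.5 ± 5.32 in WT at 7 dpp, and was near 1 in adults, with 0.56 ± 0.29 in KO and 1.13 ± 1.03 in WT.

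Others encode secreted proteins and enzymes. Fndc5, the precursor of irisin, averaged 22.6 ± 13.9 in KO and 12.9 ± 3.27 in WT at 7 dpp, against 4.61 ± 2.01 in KO and 5.93 ± 1.60 in WT at 3 dpp. Qpct, a glutaminyl cyclase that caps peptides, averaged 23.7 ± 11.2 in KO and 18.2 ± 7.84 in WT at 7 dpp and 2.09 ± 0.34 in KO and 3.24 ± 1.99 in WT adults. Enpp2, or autotaxin, which makes lysophosphatidic acid, averaged 13.5 ± 3.30 in KO and 12.0 ± 4.45 in WT at 7 dpp. These 3 genes had their adult levels below their 3 dpp levels. Sema3c, a secreted guidance cue, averaged 11.4 ± 3.51 in KO and 10.5 ± 4.24 in WT at 7 dpp and was between 1.11 and 1.59 in every adult library. Wfdc10, which has a protease inhibitor domain, averaged 115 ± 64.3 in KO and 86.5 ± 32.3 in WT at 7 dpp, and KO library 18 at 3 dpp, with 80.0, was above the lowest 7 dpp library, KO library 5, with 56.5. Olfml2b, an olfactomedin-like protein of the extracellular matrix, had a small peak, with 27.8 ± 4.46 in KO and 23.2 ± 2.66 in WT at 7 dpp.

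X-linked members had a smaller median ratio of 7 dpp over adult than the others, 2.61 in KO and 2.5 in WT, against 8.10 in KO and 4.63 in WT for the 18 autosomal members. For 7 dpp over 3 dpp the medians were 2.36 in KO and 1.98 in WT for X-linked members, against 3.22 in KO and 1.88 in WT for autosomal members. Nsbp1, now Hmgn5, encodes a nucleosome-binding protein that loosens chromatin. It had 38.2 and 22.3 in KO and 39.2, 27.8 and 81.0 in WT at 3 dpp. At 7 dpp it had 76.5, 96.6 and 128 in KO libraries 4, 5 and 6, against 107 and 119 in WT libraries 2 and 3. Adult libraries held 27.7, 29.6 and 26.0 in KO and 29.0 and 37.0 in WT. Here KO library 4 was the lowest of its age, and WT library 15 at 3 dpp lay above it. Tspyl2, a nucleosome assembly family protein, had 19.3 and 19.1 in KO and 24.2, 23.4 and 28.1 in WT at 3 dpp, 54.6, 35.0 and 46.6 in KO and 44.1 and 39.2 in WT at 7 dpp, and 18.4 to 21.8 in KO and 23.7 to 24.1 in WT adults. For Tspyl2 every 7 dpp library was above every other library, and its 3 dpp and adult libraries overlapped.

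Tro, or trophinin, is an adhesion protein of the MAGE family. It had 17.0 and 12.6 in KO and 25.5, 18.6 and 31.7 in WT at 3 dpp. At 7 dpp it had 40.7, 35.3 and 40.6 in KO, against 51.0 and 43.2 in WT, and adults had 22.4 to 25.1 in KO and 24.6 to 27.1 in WT. Both KO libraries were below all 3 WT libraries at 3 dpp, and all 3 KO libraries below both WT libraries at 7 dpp. EG436212, a pseudogene of the MAGE-B family that RefSeq names Mageb8-ps, was at 16.3 ± 2.97 in KO and 11.8 ± 4.72 in WT at 3 dpp, 30.6 ± 2.56 in KO and 39.8 ± 0.15 in WT at 7 dpp, and 10.7 ± 3.17 in KO and 12.1 ± 2.30 in WT adults. The order of the genotype means at 3 dpp was the reverse of that at 7 dpp. Gm41 and Gm44 had higher levels, with 158 ± 4.89 and 64.3 ± 3.63 in KO and 180 ± 14.3 and 80.0 ± 4.8 in WT at 7 dpp, and adult means at or above their 3 dpp means.

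Gprasp2 encodes a protein that sorts G protein-coupled receptors to lysosomes. It had 4.52 and 6.67 in KO and 9.34, 9.98 and 8.66 in WT at 3 dpp. Its 7 dpp signal was 13.4, 11.3 and 10.9 in KO, against 14.6 and 13.9 in WT, and adults had 4.15, 4.94 and 4.56 in KO, against 5.68 and 5.72 in WT. At each age every KO library was below every WT library. Etd, a gene named for the embryonic testis, had the largest ratio of 7 dpp over adult in each genotype. Its signal was 5.66 and 9.30 in KO and 9.45, 14.8 and 16.8 in WT at 3 dpp. The 7 dpp signal of Etd was 34.3, 25.8 and 32.7 in KO and 47.3 and 16.4 in WT. Adult KO libraries 10, 11 and 12 had 1.17, 0 and 0.43, and adult WT libraries 7 and 9 had 2.98 and 2.46. The WT libraries of 7 dpp spanned the whole KO range, and every adult library was far below both younger ages. 4933402E13Rik, an X-linked gene of no stated role, averaged 13.8 ± 7.00 in KO and 11.5 ± 3.93 in WT at 7 dpp, against 1.60 ± 0.47 in KO and 3.06 ± 1.03 in WT adults. Among the X-linked members it was the one in which KO library 4 stood out most.

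The transcription regulators Id2 and Six4 had smaller peaks. Id2, which blocks basic helix-loop-helix factors, averaged 17.9 ± 3.66 in KO and 15.3 ± 6.73 in WT at 7 dpp, and its 3 dpp libraries, from 3.02 to 11.8, overlapped them. Six4, a homeobox factor, averaged 15.9 ± 5.59 in KO and 15.9 ± 3.19 in WT at 7 dpp, and both younger and adult libraries overlapped with them. Mfsd2, now Mfsd2a, a carrier of lysophospholipids, and Rhobtb3 averaged 13.2 ± 1.41 and 20.6 ± 2.87 in KO and 15.9 ± 0.10 and 22.6 ± 3.90 in WT at 7 dpp. Their 7 dpp means stayed under 2 times those of either other age. The unplaced LOC100038945 averaged 45.5 ± 3.18 in KO and 48.8 ± 7.4 in WT at 3 dpp, 80.1 ± 11.7 in KO and 77.9 ± 12.0 in WT at 7 dpp, and 46.9 ± 5.34 in KO and 51.8 ± 7.41 in WT adults. The ranges of its KO and WT libraries overlapped at each age.

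The threshold of 1.5 fell among genes of like pattern. Just inside it, the smallest of the 4 ratios was 1.505 for LOC100038945, 1.52 for Six4, 1.53 for Gprasp2, 1.54 for Rhobtb3 and 1.59 for Mfsd2. Just outside it, the smallest ratio was 1.499 for 2310046K01Rik, 1.49 for Dbn1, 1.48 for C030034I22Rik, 1.47 for Mycl1 and 1.47 for Gamt. Without WT library 3 at 7 dpp, 47 genes met the rule, 26 of them members, and without WT library 2, 19 did, of them 13 members. Without KO libraries 16 and 4 together, 25 genes met it, 20 of them members. The 8 members lost then were 4933402E13Rik, Aard, Defb36, Id2, Olfml2b, Sema3c, Tnni3 and Wfdc10, so whether these meet the level and the ratios of the rule depends on those libraries.

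Single libraries stood apart in many of the members. KO library 4 was the highest library of 7 dpp in 17 of 28 members, and in 16.3% of the 9160 genes at or above 10. These 17 were 15 of the 18 autosomal and 2 of the 9 X-linked members. KO library 16 was the lowest of 3 dpp in 19 members, and in 15.4% of those genes. KO library 4 over the mean of KO libraries 5 and 6 had a median ratio of 2.10 in autosomal members, from 0.853 in Six4 to 2.83 in Cldn11. That ratio had a median of 1.10 in X-linked members and 0.960 in the genes at or above 10. KO library 18 over KO library 16 had medians of 2.84, 0.772 and 0.950 in the same sets. WT library 2 over WT library 3 had medians of 1.64, 1.12 and 0.976.

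The Sertoli markers that are no members moved with these libraries too. In them, KO library 4 over KO libraries 5 and 6 had a median of 1.34 and a range of 0.537 to 4.41, with KO library 4 the highest of 7 dpp in 11 of 15. KO library 18 over KO library 16 had a median of 3.66 and was above 1 in 15 of 15. The median step of the autosomal members was thus larger than that of these markers in KO library 4 and smaller between the 3 dpp KO libraries. Undifferentiated spermatogonia markers, none of them a member, summed to 1764 in KO library 4, against 2497 and 2424 in KO libraries 5 and 6. Their sums were 1453 and 1930.5 in WT libraries 2 and 3, and 3199 and 3327 in KO libraries 16 and 18. Retinoic acid pathway genes summed to 2238 in KO library 4, against 1570 and 1652. Theirs were 1961 and 2071 in WT libraries 2 and 3, and 1055 and 1086 in KO libraries 16 and 18. The part of Sertoli cell RNA or of germ cell stage in the level of the members was not tested.

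**Figure D3:**
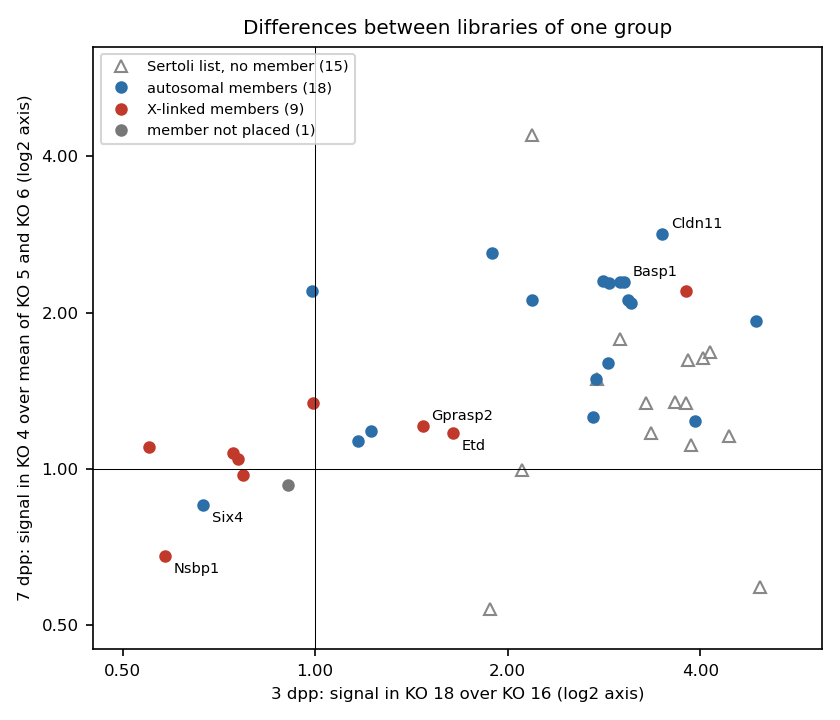
Signal in KO library 18 over KO library 16 at 3 dpp (x) against KO library 4 over the mean of KO libraries 5 and 6 at 7 dpp (y), both on log2 axes, 1 symbol per gene. Autosomal members (blue) lie mostly at 2 to 4 on x and about 2 on y, Sertoli markers (triangles) further right and mostly lower, and X-linked members (red) mostly near or under 1 on both axes.

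The genotypes were compared at each age, which the rule had not done. The rule did use the same group means, so the counts of members are not free of their choice. At 3 dpp, 26 of 28 members had a lower fitted level in KO than in WT, with a median difference of -0.57 on the log2(signal + 1) scale, where the median of all 17746 tested genes was -0.04 and 54.5% of them were below 0. Only 2 members passed the test, limma with Benjamini-Hochberg adjustment over all tested genes at 0.05, both lower in KO. Over all genes 10.3% passed, and 6.34% passed as lower in KO, so 2 of 28 is near that background. Tro fell by 0.72 ± 0.18 (SE, limma adjusted p = 0.0254) and Gprasp2 by 0.66 ± 0.16 (limma adjusted p = 0.0232) in KO. Without KO library 16 the median difference of the members was -0.17 and 18 of 28 were lower. Without KO library 18 it was -1.0 and 25 were lower. Tro missed the threshold without KO library 18 (limma adjusted p = 0.196) and Gprasp2 missed it without KO library 16 (limma adjusted p = 0.151). Leaving out WT library 13 took both above it, to 0.0707 for Tro and 0.0631 for Gprasp2 (limma adjusted p). Gprasp2 also missed it without WT library 14 (limma adjusted p = 0.0747), where Tro passed. Tro missed it without WT library 15 (limma adjusted p = 0.0544), where Gprasp2 passed. Among Sertoli markers that are no members, 14 of 15 were also lower in KO at 3 dpp, with a median of -0.67, and Kitl was the 1 called.

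At 7 dpp, the age of the peak, 19 members were higher and 9 lower in KO, with a median of 0.15, and 51.9% of all tested genes were higher. By limma 0 members passed the adjusted threshold and 0 had an unadjusted p under 0.05, where 0.158% of all genes were called and 7.48% had such a p. The autosomal members were higher in KO in 15 of 18 (median 0.27) and the X-linked members in 3 of 9 (median -0.20). Basp1 and Fndc5 had the largest differences, both 0.63 (SE 0.42 for Basp1). Without KO library 4, 10 members were higher and 18 lower, with a median of -0.06. The median was -0.11 without WT library 3, 0.46 without WT library 2, 0.29 without KO library 5 and 0.23 without KO library 6, so its sign and size rested on single libraries. The 15 Sertoli markers outside the set were higher in KO in 15 of 15, with a median of 0.21 and 0 called.

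In adults 27 of 28 members were lower in KO, Id2 being the exception, with a median of -0.30, where 55.1% of all genes were lower. None of the 28 passed by limma, against 0.27% of all genes. An unadjusted p under 0.05 was reached by 2 of 28, against 11.8% of all genes. Etd had the largest difference, -1.35 ± 0.40 (limma adjusted p = 0.179), and Six4 had -0.71 ± 0.26 (limma adjusted p = 0.27). Among the alternatives run, Etd passed only without KO library 10. A WT library was the highest of the 5 adult libraries in 25 members, WT library 7 in 14 and WT library 9 in 11. Among the genes at or above 10 at 7 dpp, these 2 libraries were highest in 15.0% and 25.6%. Sertoli markers that are no members were lower in 14 of 15, with a median of -0.60. Averaged over the 3 ages, 27 members were lower in KO (median -0.26, 58.9% of all genes lower). Without KO library 16 the median was -0.13, with 22 lower, and without KO libraries 16 and 4 together 25 were lower. In this average 0 members passed by limma, against 1.43% of all genes, and 6 had an unadjusted p under 0.05, against 15.5% of all genes. Gprasp2 came nearest, with -0.40 ± 0.09 (limma adjusted p = 0.0597).

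**Figure D4:**
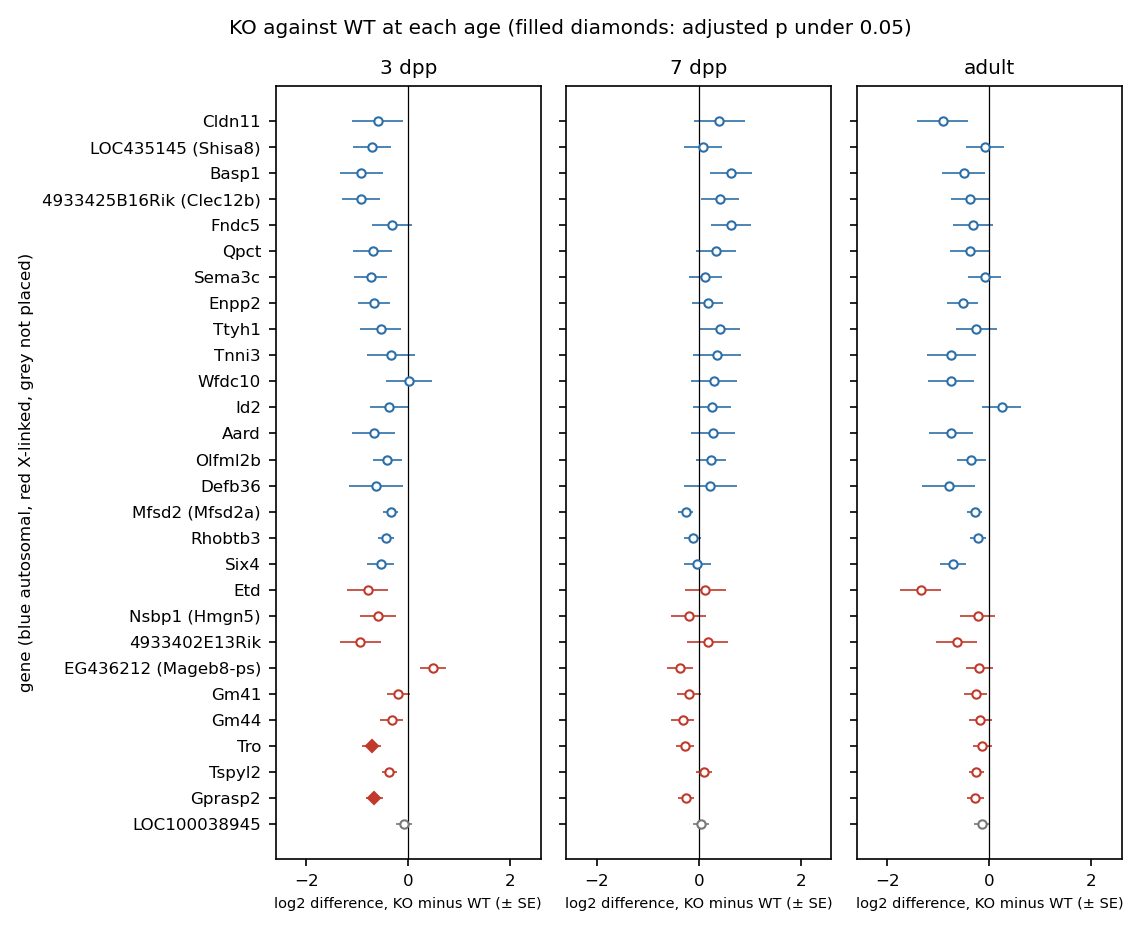
Fitted log2 difference, KO minus WT, of the 28 genes at 3 dpp, 7 dpp and in adults, with its SE; filled diamonds passed the adjusted threshold. At 3 dpp all but 2 points lie left of 0 and only Tro and Gprasp2 passed, at 7 dpp points lie on both sides, and in adults all but Id2 lie left of 0.

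The difference between KO and WT was also compared between ages. Such a change sets the KO age ratio against the WT age ratio, and the rule had required each of these ratios to be at least 1.5. The counts of members are thus a description beside the shares of all genes, and nothing is read from them. The difference was larger at 7 dpp than at 3 dpp in 27 of 28 members, with a median change of 0.67, where 55.5% of all tested genes had a positive change. EG436212 was the exception, with -0.86 ± 0.37. By limma 0 of the 28 passed, against 2.0% of all genes, and 4 had an unadjusted p under 0.05, against 19.6%. Basp1 had the largest change, 1.55 ± 0.59 (limma adjusted p = 0.168). Without KO libraries 16 and 4, both of which stood apart in the members, 17 were positive and 11 negative, with a median of 0.10. The median was 0.24 without KO library 16, 1.32 without KO library 18 and 1.06 without WT library 2. Between 7 dpp and adults the change was negative in 25 members, with a median of -0.63, where 54.8% of all genes were below 0. That median was -0.32 without KO library 4 (21 negative), -0.32 without WT library 3 of 7 dpp (19 negative) and -0.34 without adult WT library 7 (26 negative). Again 0 members passed by limma, as did 0 of all 17746 genes (0%), while 1 member and 2190 genes (12.3%) had an unadjusted p under 0.05. Without KO library 4, 47 of all genes passed. The Sertoli markers outside the set moved the same way, with 15 of 15 positive for 7 dpp against 3 dpp (median 0.93) and 15 of 15 negative for adult against 7 dpp (median -0.84).

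Retinoic acid genes were set beside the members, since the pathway starts spermatogonial differentiation at this age. No gene on the list of 32 was a member. Of 27 tested, 11 rose and 2 fell at 7 dpp against 3 dpp with both genotypes averaged (limma, 18.0% of all genes rose and 17.4% fell, 35.4% in all). In adults against 7 dpp 7 rose and 6 fell (27.1% and 23.3% of all genes, 50.4% in all). Rarg, a receptor, averaged 70.7 in KO and 68.4 in WT at 7 dpp, against 15.9 in KO and 18.6 in WT at 3 dpp (1.96 ± 0.18, limma adjusted p = 9.97e-06), and adults did not differ from 7 dpp past the threshold (0.14 ± 0.18, limma adjusted p = 0.545). Stra8, which retinoic acid induces before meiosis, rose by 1.43 ± 0.13 and Kit, the stem cell factor receptor of differentiating cells, by 1.39 ± 0.11. Dhrs3, a retinal reductase, fell by 1.86 ± 0.26 at 7 dpp. Stra6, a retinol carrier, had the largest drop in adults on the list. It averaged 13.2 in KO and 10.3 in WT at 7 dpp, and 0.45 in KO and 0.92 in WT adults (-2.93 ± 0.35). Its difference between 7 dpp and 3 dpp, 0.68 ± 0.35, did not pass (limma adjusted p = 0.16).

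Of 20 differentiation genes of spermatogonia, none of them a member, 18 were tested. Among these 11 rose and 3 fell at 7 dpp against 3 dpp (18.0% and 17.4% of all genes). In adults against 7 dpp 6 rose and 5 fell (27.1% and 23.3% of all genes). Crabp1, Stra8 and Kit stand on both this list and the retinoic acid list and count among the genes that rose at 7 dpp in each, so the counts are not independent. Sohlh1 and Sohlh2, factors that start differentiation, were the 2 that rose at 7 dpp (0.75 ± 0.06 and 0.26 ± 0.07) and then fell in adults (-0.41 ± 0.06 and -0.55 ± 0.07). Dmrtb1 rose in both steps, by 1.34 ± 0.20 and then 1.75 ± 0.20, and Dnmt3b, a DNA methyltransferase, rose by 1.06 ± 0.09 and did not pass in adults. Pou5f1, whose promoter drives GFP in the transgene used for sorting, averaged 153 in KO and 188 in WT at 3 dpp. It averaged 466 in KO and 748 in WT at 7 dpp, and 207 in KO and 341 in WT adults. It was the 1 gene set aside by name that met the thresholds of the members.

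**Figure D5:**
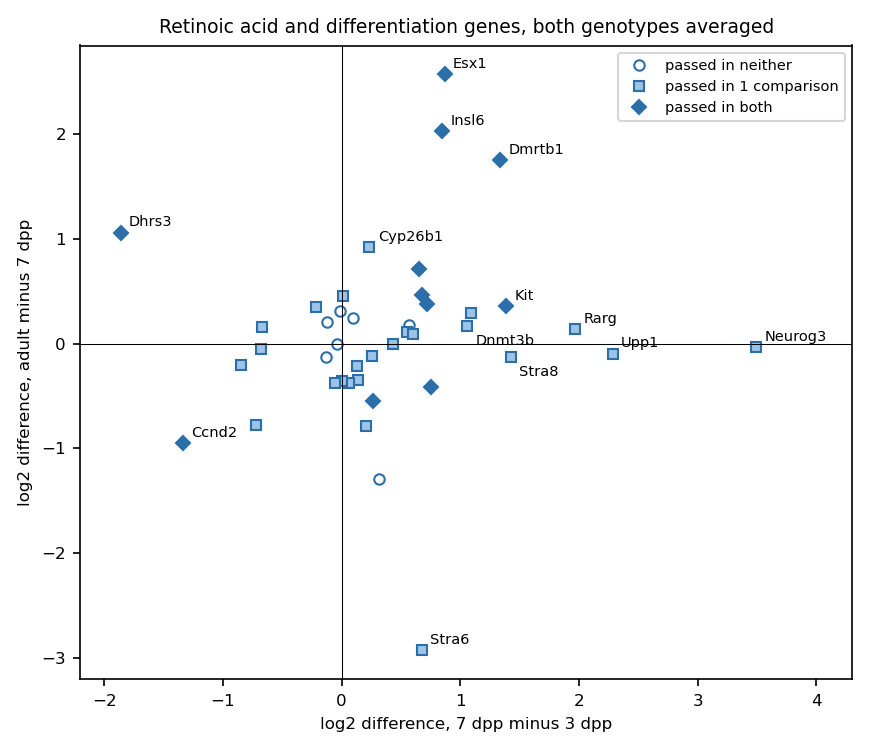
Fitted log2 differences of retinoic acid pathway and differentiation genes, 7 dpp minus 3 dpp (x) and adult minus 7 dpp (y), with both genotypes averaged; filled diamonds passed the adjusted threshold in both comparisons, pale squares in 1 and open circles in neither. Neurog3, Rarg and Stra8 lie right of 0 on x and near 0 on y, and Stra6 lies lowest on y.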

How the data were processed

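RNA libraries of 15 batches of OCT4-GFP sorted testis cells were made with an mRNA kit, per the labels' protocols, and Trim Galore, kallisto, DESeq2 and mm10 were used, per the submitters' processing notes. The authors deposited 1 signal per gene and library. After a library is brought to a total of 1000000, its values from 0 to 1 are multiples of 0.01 (tolerance 0.0006), as TPM with 2 decimals times 1 factor would be. The depth is unknown, and an exact 0 can be a failed estimate. The members, gene lists and the split by chromosome were chosen with earlier results of these data known. The fit kept the 17746 genes, all 28 members among them, that reached a signal of 1 in 2 or more libraries. It used limma 3.58.1 in R 4.3.3, with trend, on log2(signal + 1), with all 15 libraries and 6 group means together, and Benjamini-Hochberg adjustment at 0.05 within each comparison. Fold changes on this scale understate the change of low genes. Since the values are not counts, the limma test planned for that case was used. The code was tested on simulated data. Names were matched to RefSeq by symbol, older name or gene ID. Named were members on a marker list, the 12 highest, the 12 with the largest peak, those called and those at the threshold; other members were named after their values were seen. Alternatives changed the rule, pseudocount, filter, scaling, trend, libraries, and length and GC.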

Additional observations from a re-analysis of the deposited data

How the results depend on the processing

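The rule gave 9 members with a ratio of 2 in place of 1.5 and 18 with a level of 20 in place of 10. It gave 27 with libraries rescaled to a common total (24 shared), 28 with group medians (27 shared), 25 without KO libraries 16 and 4 (20 shared, an alternative chosen after seeing the data), and 19 to 47 with single libraries left out, the highest without WT library 3. At 3 dpp 5 members were called KO against WT after rescaling, which moved the median of all genes to -0.18, 0 after quantile normalization or with libraries of that age alone, 1 with length and GC trends removed, 1 without both KO libraries 16 and 4, and 0 to 6 with single libraries left out. Averaged over ages the count was 1 with the stricter filter, 2 after rescaling, 1 without the trend and 0 to 1 with single libraries left out. In adults and for the change from 3 dpp to 7 dpp it was 0 to 1 with single libraries left out, and at 7 dpp and for the change from 7 dpp to adults it was 0 in all of these. For adults against 7 dpp, 8 to 16 retinoic acid genes were called with single libraries left out, the lowest without adult WT library 7. Of 1104 values for single genes, 1037 kept direction and side of the threshold, 60 lost the call, 7 gained it and 0 changed direction. The causes were not tested. No paired analysis was possible because the library numbers are unique to each library. Limits are 2 or 3 libraries per group, unknown depth and members chosen by their age means.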

Other observations

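Other cell types were followed by marker lists that hold none of the 28 genes. Spermatid markers summed to 2492 to 5279 in adult KO libraries and 5475 to 12170 in adult WT libraries, against 37.6 to 56.2 in the libraries of 3 and 7 dpp. Leydig cell markers summed to 108 to 3033 in adult KO libraries and 3951 to 5634 in adult WT libraries, and macrophage markers to 41.5 to 295 in adult KO libraries and 352 to 1068 in adult WT libraries. Both adult WT libraries were thus above all 3 adult KO libraries in each of the 3 lists. Among the members, the highest adult library was a WT library in 25 of 28, library 7 in 14 and library 9 in 11. Among the genes at or above 10 at 7 dpp, these libraries were highest in 15.0% and 25.6%. A link between the marker sums and the members was not tested.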
